A study of Mus musculus with 20 samples.

Results

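Interferon-stimulated genes were examined in the femoral shaft of Hyp mice, as 47 genes named for their known induction by interferons and read through every probe set annotated to them. Of these, 45 had a probe set of their own, 78 probe sets in all out of 45101 on the array. A probe set was tested where the detection call was present on at least 5 of the 20 arrays, which left 60 probe sets for 40 of the genes, among 27141 probe sets tested in all. Isg15, found only on a probe set shared with another gene, and Ifi44 were not analysed here. Dhx58, Zbp1, Oas1a, Oas3 and Mx2 had probe sets but none that passed.

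Interferons are secreted proteins that cells release on sensing viral or misplaced nucleic acid. Type I interferons act through the receptor chains Ifnar1 and Ifnar2 and the kinases Jak1 and Tyk2, and bring a complex that holds Stat2 and Irf9 to the interferon-stimulated response element (ISRE) of their target genes. Type II interferon acts at gamma-activated sites (GAS). In bone, interferons are known for restraining osteoclast formation, and marrow macrophages and plasmacytoid dendritic cells are among their known producers.

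The Hyp allele lacks the 3′ part of Phex, which is an X-linked endopeptidase gene of osteoblasts and osteocytes, and models X-linked hypophosphatemia. The 4 groups were hemizygous Hyp/Y males, their wild-type male littermates, heterozygous Hyp/+ females and their wild-type female littermates, all C57BL/6J and 5 weeks old, with 5 Affymetrix arrays each. Each array held RNA pooled from 2 mice, and each of 5 series held 1 array of every group, matched for litter and processing, which gave 10 pairs, 5 in each sex, of Hyp with normal. The bone was the shaft of both femora after flushing with saline, so remaining marrow, vessels and bone cells were measured together, and a difference in cell number cannot be told apart from one in RNA per cell.

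Between 49.3% and 56.9% of probe sets had a present call, by array, and the number of arrays limits the precision. Phex signal was 3.8 to 48.2 in Hyp males, against 2391 to 4002 in normal males, and 356 to 847 in Hyp females, against 3388 to 5764 in normal females. Where its probes lie relative to the deletion was not looked up. The bone markers Dmp1 and Col1a1 were called present on all 20 arrays, Mepe on 18 and Sost on 12.

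Across both sexes, 36 of the 40 interferon-stimulated genes had a positive log2 fold change of Hyp over normal, each read by its brightest tested probe set. The median was 0.19 on the log2 scale, and 0.01 over all probe sets tested. By probe set, 52 of 60 were positive (86.7%), against 52.4% of all tested. Of the 60 member probe sets, 1 passed an adjusted p of 0.05 (limma, Benjamini-Hochberg over all probe sets tested). That was Ifit2, higher in Hyp, where 2.38% of all probe sets passed in either direction and 1.08% passed as higher. At an unadjusted p under 0.05, 20 of 60 were higher in Hyp (33.3%, against 11.5% of all) and 1 was lower (1.67%, against 8.73% of all). In 10 of 10 pairs Hyp was above normal for 3 member probe sets, of Ifit2, Tap1 and Irgm1 (5.0%, against 1.31% of all). These counts describe genes that share arrays and respond to common signals, and they are not a test of the list.

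The mean log2 signal of the 40 genes was 9.46 ± 0.07 in Hyp males, against 9.21 ± 0.13 in normal males, and 9.32 ± 0.15 in Hyp females, against 9.18 ± 0.09 in normal females (SD, n = 5 arrays each). Within pairs, the median shift of the 40 genes in males of series 1 to 5 was 0.24, 0.37, 0.20, 0.27 and 0.07. In females it was 0.19, 0.02, 0.15, 0.23 and -0.01. The shift was above 0 in 9 of 10 pairs. It was smallest in the female pairs of series 2 and 5 and the male pair of series 5. In series 5, 26 of 40 genes were higher in the Hyp male and 20 of 40 in the Hyp female than in their normal partners.

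**Figure D1:**
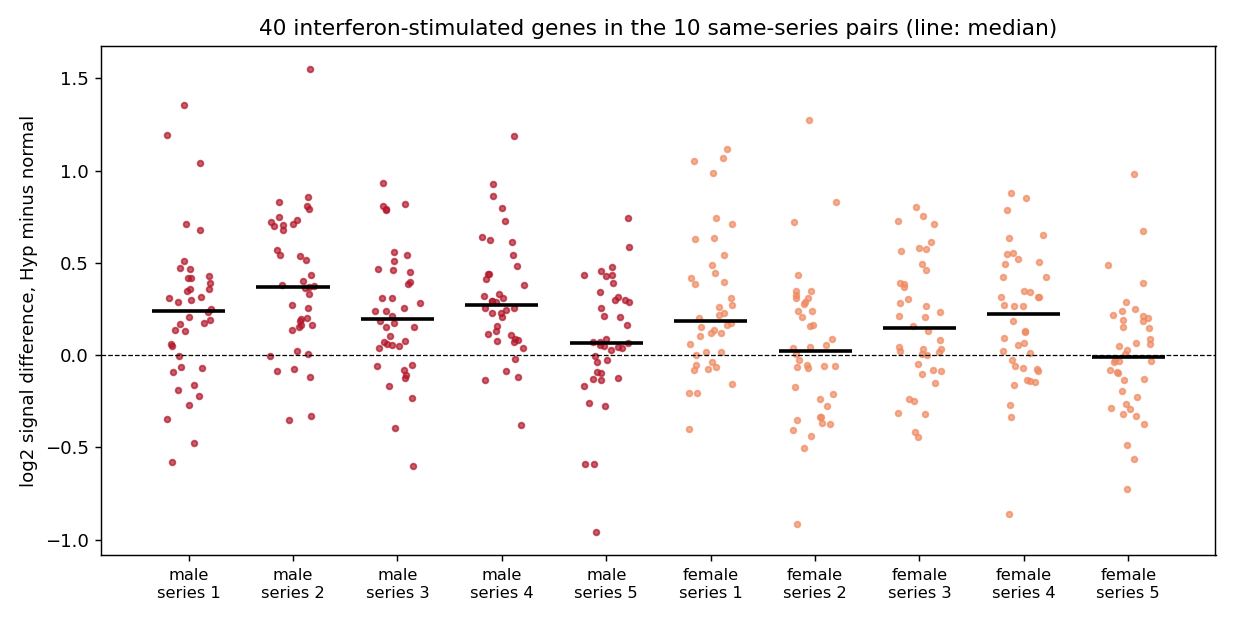
Log2 signal difference of Hyp minus normal for the 40 interferon-stimulated genes (points) in each of the 10 same-series pairs, males left and females right, with the median as a line. The median lies highest in the male pair of series 2 at 0.37 and lowest in the female pair of series 5 at -0.01.

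**Figure D2:**
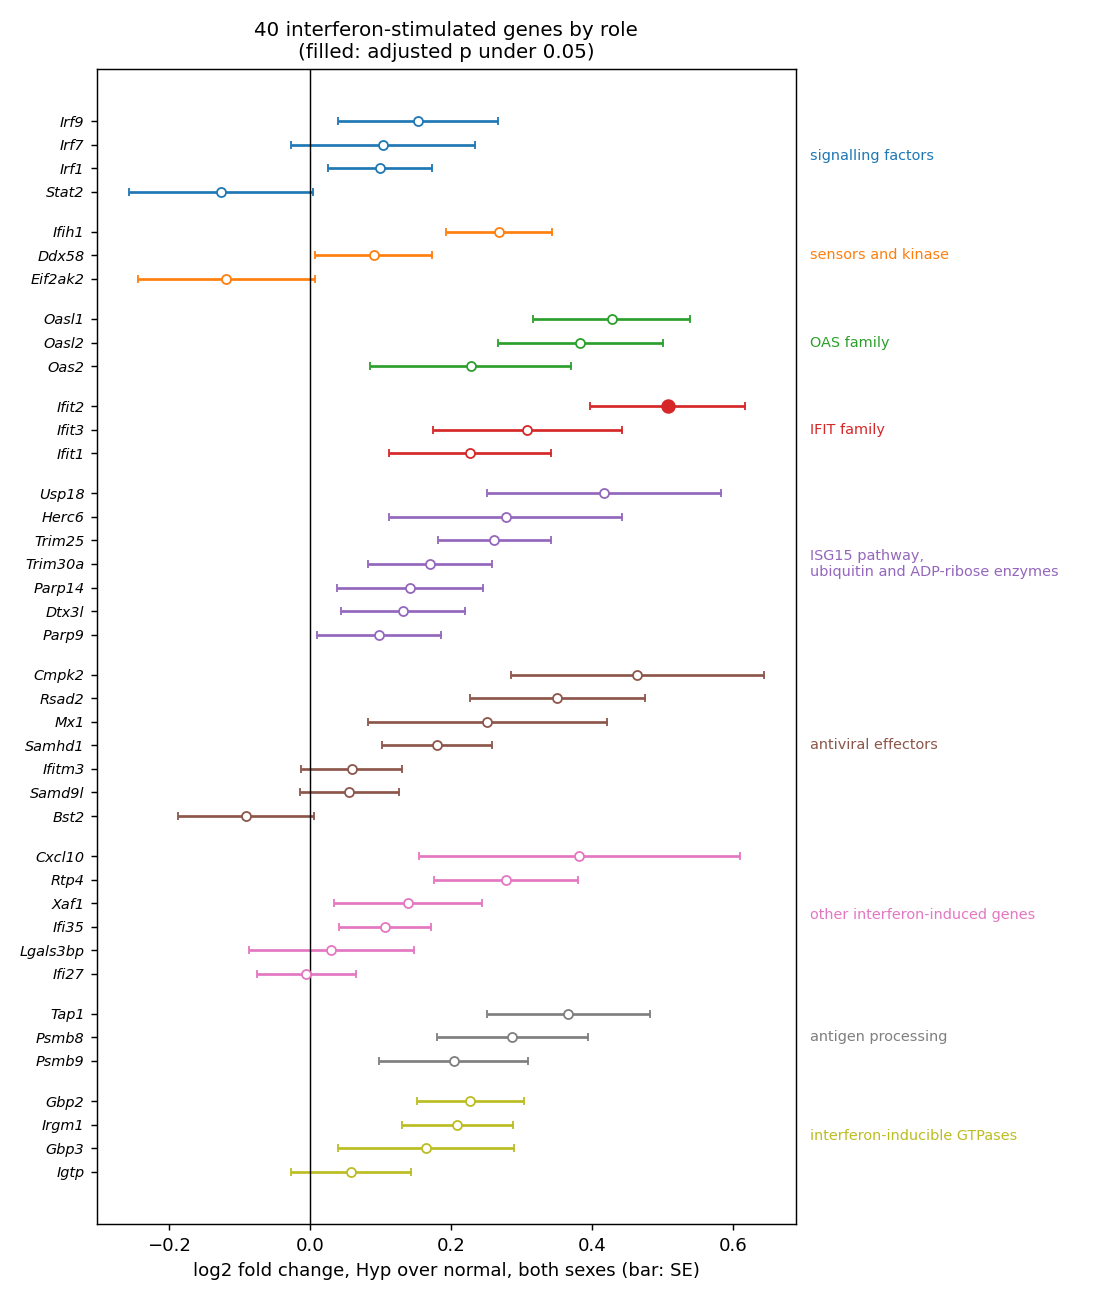
Log2 fold change of Hyp over normal across both sexes, with its SE, for the 40 genes grouped by role. Ifit2, the filled point, was the only one past an adjusted p of 0.05, and 4 genes lie below 0.

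The IFIT proteins bind foreign RNA through tetratricopeptide repeats and block its translation. Of the 3 genes 1 passed the test, where 2.38% of all probe sets passed. Ifit2 signals were 238, 324, 224, 308 and 327 in Hyp males of series 1 to 5, against 173, 247, 200.1, 216 and 189 in normal males. In females Ifit2 gave 234, 320.4, 268, 327 and 268 in Hyp mice, against 231, 123, 176, 218 and 186 in normal mice. The 5 Hyp females lay above all 5 normal females, while in males the lowest Hyp arrays, of series 1 and 3, lay within the normal range. Ifit2 rose in Hyp by 0.51 ± 0.11 on the log2 scale (estimate ± SE, n = 10 arrays a genotype), 1.42-fold, with a limma adjusted p of 0.028, and Hyp was above normal in 10 of 10 pairs. The pair differences ran from 0.02 in females of series 1 to 1.27 in females of series 2, where the normal female gave the lowest signal of all, 123. By sex the Ifit2 log2 fold change was 0.44 ± 0.16 in males and 0.58 ± 0.16 in females, with adjusted p of 0.166 and 0.228, so neither sex alone passed. The call was lost without series 2, 3, 4 or 5 in turn, with adjusted p from 0.0508 to 0.144, and with 6 single arrays left out, from 0.0527 to 0.0579. Ifit3 and Ifit1 had log2 fold changes of 0.31 ± 0.13 and 0.23 ± 0.11, higher in Hyp in 9 and 7 of 10 pairs, and missed the threshold (adjusted p 0.208 and 0.282).

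**Figure D3:**
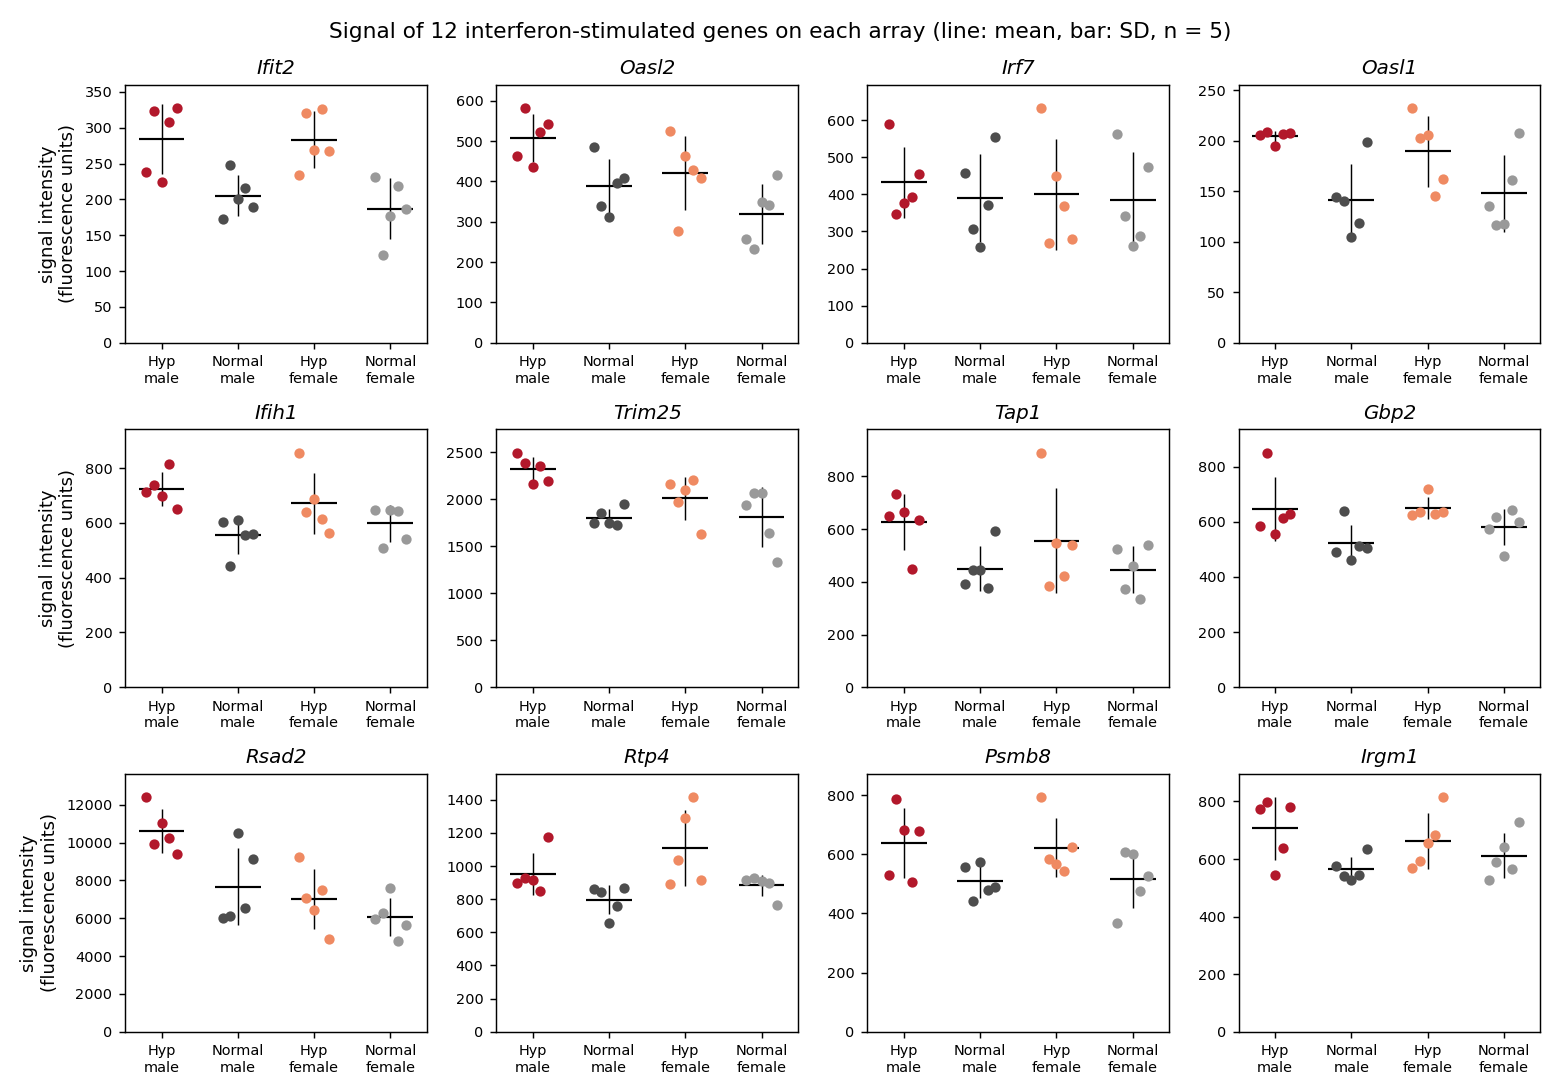
Signal intensity of 12 interferon-stimulated genes on every array, in Hyp males, normal males, Hyp females and normal females (points), with the group mean as a line and its SD as a bar. Ifit2 in Hyp females lies between 234 and 327, above all normal females.

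Upstream sequences are shown because regulation by interferons is what the members are known for. They are those of the 3 IFIT genes, of Oasl1 and Ifih1, next after Ifit2 by p, and of Rsad2 and Gbp2, chosen after the search because they hold a match. The windows are the 250 bases before the RefSeq start on GRCm38.p6, 5′ to 3′ on the gene's strand, with capitals at matches to the ISRE core GAAA, any 2 bases, GAAA on either strand or to the GAS pattern TTC, any 3 bases, GAA, which is its own reverse complement.
Ifit2 (chr19:34550444-34550693, plus strand): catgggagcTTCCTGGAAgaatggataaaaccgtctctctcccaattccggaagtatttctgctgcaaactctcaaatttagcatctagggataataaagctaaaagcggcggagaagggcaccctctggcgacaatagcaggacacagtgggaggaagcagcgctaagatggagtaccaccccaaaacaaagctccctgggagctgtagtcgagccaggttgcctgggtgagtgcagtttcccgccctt
Ifit1 (chr19:34640639-34640888, plus strand): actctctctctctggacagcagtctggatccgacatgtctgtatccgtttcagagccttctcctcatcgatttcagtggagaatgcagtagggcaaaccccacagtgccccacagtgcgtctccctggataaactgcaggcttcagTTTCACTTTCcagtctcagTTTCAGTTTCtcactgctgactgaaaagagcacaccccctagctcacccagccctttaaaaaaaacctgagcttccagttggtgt
Ifit3 (chr19:34583279-34583528, plus strand): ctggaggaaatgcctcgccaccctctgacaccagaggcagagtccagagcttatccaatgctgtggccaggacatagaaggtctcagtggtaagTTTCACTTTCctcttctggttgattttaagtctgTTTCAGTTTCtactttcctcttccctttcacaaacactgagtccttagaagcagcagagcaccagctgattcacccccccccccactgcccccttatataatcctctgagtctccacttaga
Oasl1 (chr5:114922990-114923239, plus strand): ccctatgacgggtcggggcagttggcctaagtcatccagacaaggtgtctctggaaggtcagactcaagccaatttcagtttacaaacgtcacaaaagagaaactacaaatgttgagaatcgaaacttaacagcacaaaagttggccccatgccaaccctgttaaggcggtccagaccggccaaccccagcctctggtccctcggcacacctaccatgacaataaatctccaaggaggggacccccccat
Ifih1 (chr2:62646256-62646505, minus strand): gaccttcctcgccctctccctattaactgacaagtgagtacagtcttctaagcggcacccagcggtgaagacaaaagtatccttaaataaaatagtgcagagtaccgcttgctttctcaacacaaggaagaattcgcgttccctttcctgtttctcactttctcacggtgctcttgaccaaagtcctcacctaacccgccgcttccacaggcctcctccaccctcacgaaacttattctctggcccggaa
Rsad2 (chr12:26456453-26456702, minus strand): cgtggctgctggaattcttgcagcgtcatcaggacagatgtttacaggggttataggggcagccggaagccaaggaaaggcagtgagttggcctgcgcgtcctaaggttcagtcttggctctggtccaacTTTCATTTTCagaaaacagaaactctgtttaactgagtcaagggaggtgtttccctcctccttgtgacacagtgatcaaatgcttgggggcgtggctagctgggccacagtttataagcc
Gbp2 (chr3:142620413-142620662, plus strand): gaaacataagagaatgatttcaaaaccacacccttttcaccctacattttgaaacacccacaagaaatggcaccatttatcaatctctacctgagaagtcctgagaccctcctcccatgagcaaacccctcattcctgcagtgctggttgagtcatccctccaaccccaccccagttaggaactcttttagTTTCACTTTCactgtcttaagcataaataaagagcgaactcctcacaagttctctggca

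Ifit1 and Ifit3 each held 2 ISRE matches, and Rsad2 and Gbp2 held 1 each. The 5 genes next after Ifit2 by p, Oasl1, Ifih1, Oasl2, Trim25 and Tap1, held 0 matches to either pattern before the start, and Ifih1 held an ISRE match after it. The Ifit2 window shown, the first of its 2 in the RefSeq table, held a GAS match and no ISRE match, and the other window held neither. Windows were found for 37 of the 47 genes, and with the 50 bases after the start included, 18 of the 37 held an ISRE match in any of their windows and 10 a GAS match. Counted by window, 19 of the 42 windows of these genes held an ISRE match and 10 a GAS match. Among all 32851 windows of that table, 3.44% held an ISRE match and 8.3% a GAS match. A match is a description of letters and not a site of binding, and its absence says only that these letters are not in this window.

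The OAS family makes oligoadenylates that switch on RNase L, and its OAS-like members act in other ways. Mouse Oasl1 is known to limit Irf7 translation. Their 3 tested genes all had positive log2 fold changes and 0 passed, where 2.38% of all probe sets passed. Oasl2 signals were 463, 581, 435, 521 and 542 in Hyp males of series 1 to 5, against 484, 339, 312, 397 and 409 in normal males. In females Oasl2 gave 526, 276, 462, 427 and 408 in Hyp mice, against 257, 232, 348, 341 and 416 in normal mice. Hyp arrays lay mostly above normal ones in both sexes, with overlap in each. The Oasl2 log2 fold change was 0.38 ± 0.12, alike in males (0.38) and females (0.38), with an adjusted p of 0.0879 and 8 of 10 pairs higher in Hyp. Oasl1 signals were 205, 208, 195, 206 and 208 in Hyp males of series 1 to 5, against 144, 141, 104, 118 and 199 in normal males. In females Oasl1 gave 232, 202, 206, 146 and 162 in Hyp mice, against 136, 116, 118, 162 and 208 in normal mice. The 5 Hyp males were tightly grouped and overlapped only the normal male of series 5, whereas the female groups overlapped widely. Oasl1 had 0.43 ± 0.11 (adjusted p 0.0555, 8 of 10 pairs), but its probe set was called present on only 7 arrays, 3 of Hyp males, 1 of normal males, 2 of Hyp females and 1 of normal females. Oas2 had 0.23 ± 0.14 and an adjusted p of 0.389.

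Sensors of foreign nucleic acid were mixed. Ifih1 signals were 714, 739.5, 697, 816 and 649.9 in Hyp males of series 1 to 5, against 605, 441, 612, 555 and 559.7 in normal males. In females Ifih1 gave 855, 641, 686, 613 and 563 in Hyp mice, against 646, 509, 647, 644 and 542 in normal mice. Ifih1 encodes MDA5, a helicase that senses long double-stranded RNA, and its 5 Hyp males lay above all 5 normal males, with overlap in females. The Ifih1 log2 fold change was 0.27 ± 0.08 (adjusted p 0.0689, 9 of 10 pairs), 0.38 in males and 0.16 in females. Ddx58, which encodes RIG-I, a sensor of RNA ends, had 0.09 ± 0.08, with its other probe sets at 0.11 and 0.07. Eif2ak2, the kinase PKR that halts translation on binding double-stranded RNA, differed in sign between probe sets, with -0.12 ± 0.13 at the brightest and 0.18 ± 0.14 and 0.23 ± 0.11 at the other two. The smallest adjusted p among those of Ddx58 and Eif2ak2 was 0.262.

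The signalling factors, which carry the interferon signal to the genes, did not pass, where 2.38% of all probe sets did. Irf7 signals were 589, 346, 376, 393 and 455 in Hyp males of series 1 to 5, against 456, 307, 259, 372 and 555 in normal males. In females Irf7 gave 632, 268, 449, 369 and 281 in Hyp mice, against 562, 343, 259.9, 288 and 475 in normal mice. Irf7, the factor that amplifies type I interferon, overlapped fully between Hyp and normal arrays in both sexes, and series 1 gave the highest signal in 3 of the 4 groups. Its log2 fold change was 0.10 ± 0.13, with an adjusted p of 0.707 and 7 of 10 pairs higher in Hyp. Of the others, Irf9 had 0.15 ± 0.11 and Irf1 had 0.10 ± 0.07. Stat2, the partner of Irf9, gave -0.13 ± 0.13 at its brightest probe set and 0.19 ± 0.18 at another, called present on 9 arrays (adjusted p 0.632 and 0.611).

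Enzymes of the ISG15 pathway and of ubiquitin or ADP-ribose transfer had positive values in 7 of 7 genes by brightest probe set. Their median was 0.17 and 0 passed, where 2.38% of all probe sets did. Trim25 signals were 2491, 2383, 2164, 2348 and 2191 in Hyp males of series 1 to 5, against 1745, 1849.9, 1743, 1724 and 1952 in normal males. In females Trim25 gave 2156, 1970.2, 2095, 2199 and 1631 in Hyp mice, against 1936, 2059.7, 2068, 1635 and 1331 in normal mice. Trim25, a ubiquitin ligase that activates RIG-I, was higher in all 5 Hyp males than in any normal male, and the female groups overlapped. Its log2 fold change was 0.26 ± 0.08 (adjusted p 0.0888, 9 of 10 pairs), and its other probe sets gave 0.20 and 0.16. Usp18, the protease that removes ISG15 and dampens the type I receptor, had 0.42 ± 0.17 (adjusted p 0.172). Herc6, the main ISG15 ligase in mice, had probe sets that differed in sign, 0.28 ± 0.17 at the brightest, 0.21 ± 0.15 at a second and -0.20 ± 0.09 at the last, which was the 1 member probe set lower in Hyp at an unadjusted p under 0.05 (adjusted p 0.226). Trim30a had 0.17 ± 0.09, with 0.27 ± 0.09 at its other probe set. Parp14, and Dtx3l and Parp9, which encode partners in one complex, had 0.14, 0.13 and 0.10, with adjusted p from 0.426 to 0.573.

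Antiviral effectors had 6 of 7 genes positive, a median of 0.18 and 0 passing, where 2.38% of all probe sets passed. Rsad2 signals were 12391, 9938, 11054, 10221 and 9400.3 in Hyp males of series 1 to 5, against 6004, 6096, 10498, 6561 and 9127 in normal males. In females Rsad2 gave 9256, 7058, 6435, 7492 and 4917 in Hyp mice, against 5968, 6290.4, 7588, 4819 and 5628 in normal mice. Rsad2 encodes viperin, an enzyme that makes a chain-terminating nucleotide, and its 5 Hyp males were above all normal males but that of series 3, with overlap in females. The Rsad2 log2 fold change was 0.35 ± 0.12 (adjusted p 0.13, 8 of 10 pairs), while its 2 dimmer probe sets gave 0.35 ± 0.16 and 0.07 ± 0.14. Cmpk2, a mitochondrial nucleotide kinase that neighbours Rsad2, had the second highest value of the 40 genes, 0.46 ± 0.18, with a wide spread (signals 244 to 1313, adjusted p 0.161). Samhd1, which breaks down deoxynucleotides, had 0.18 ± 0.08 at its brightest probe set, 0.36 ± 0.11 at a second (adjusted p 0.0749) and 0.02 ± 0.13 at the last. Mx1, a dynamin-like GTPase whose allele is defective in C57BL/6 mice, had 0.25 ± 0.17. Bst2, which tethers virus particles at the cell surface, had -0.09 ± 0.10, and Ifitm3 and Samd9l lay near 0 (0.06 and 0.06). Adjusted p of these last 4 genes ran from 0.43 to 0.709.

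Antigen processing genes, which interferons raise so that cells display more peptide, were positive in 3 of 3. Tap1 signals were 649, 732, 664, 450.3 and 633 in Hyp males of series 1 to 5, against 391, 444, 446, 375 and 594 in normal males. In females Tap1 gave 889, 384, 546, 421 and 539.7 in Hyp mice, against 523, 372, 461, 335 and 538 in normal mice. Tap1, a subunit of the peptide transporter into the endoplasmic reticulum, was higher in Hyp in 10 of 10 pairs, although the groups overlapped and the pair differences ran from 0.01 to 0.75. Its log2 fold change was 0.37 ± 0.12, with an adjusted p of 0.0948. Psmb8 signals were 529, 788, 681, 505 and 679.7 in Hyp males of series 1 to 5, against 555, 442, 574, 479.7 and 490.1 in normal males. In females Psmb8 gave 792, 584, 565, 542 and 624 in Hyp mice, against 369, 608, 599.8, 476 and 527 in normal mice. Psmb8, a catalytic subunit of the immunoproteasome, overlapped between genotypes in both sexes and was higher in Hyp in 7 of 10 pairs (0.29 ± 0.11, adjusted p 0.147). Psmb9, another such subunit, had 0.20 ± 0.11 and an adjusted p of 0.294.

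The interferon-inducible GTPases, a class with members that attack membranes around intracellular microbes, were positive in 4 of 4. Gbp2 signals were 585, 849, 554, 615 and 627 in Hyp males of series 1 to 5, against 489.8, 638, 461, 513 and 506 in normal males. In females Gbp2 gave 623, 634, 719, 629.5 and 637 in Hyp mice, against 573, 616, 475, 641 and 597 in normal mice. The Hyp male of series 2 was the highest Gbp2 array and the groups overlapped in both sexes. Gbp2 had 0.23 ± 0.08 (adjusted p 0.112, 9 of 10 pairs), and a second probe set gave 0.40 ± 0.12 (adjusted p 0.0916). Irgm1 signals were 772, 797, 546, 639.6 and 779 in Hyp males of series 1 to 5, against 575, 543, 528, 544 and 635 in normal males. In females Irgm1 gave 569, 593, 657, 683 and 814 in Hyp mice, against 528, 591, 642, 564 and 729.5 in normal mice. Irgm1 was higher in Hyp in 10 of 10 pairs, in some by very little, with groups that overlapped. Its log2 fold change was 0.21 ± 0.08 and its adjusted p 0.149. Gbp3 had 0.16 ± 0.12 and Igtp had 0.06 ± 0.08.

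Of 6 other interferon-induced genes, 5 had positive values. Rtp4 signals were 898, 927, 916, 848 and 1174 in Hyp males of series 1 to 5, against 858, 841, 658, 759 and 865 in normal males. In females Rtp4 gave 893, 1035, 1288, 1414 and 917 in Hyp mice, against 917, 925, 910.3, 896 and 768 in normal mice. Rtp4, a chaperone of membrane receptors, was above every normal array of its sex in 4 of 5 Hyp males and 3 of 5 Hyp females. It had 0.28 ± 0.10 (adjusted p 0.14, 9 of 10 pairs). Cxcl10, a chemokine that draws T cells, had 0.38 ± 0.23 with signals from 52.3 to 286 and present calls on 10 arrays (adjusted p 0.365). Xaf1 gave 0.14 ± 0.11 at its brightest probe set and -0.24 ± 0.16 at another called present on 5 arrays. Ifi35 gave 0.11 ± 0.06, 0.01 ± 0.11 and -0.13 ± 0.10 at its 3 probe sets. Lgals3bp was at 0.03 ± 0.12, and Ifi27 at -0.01 ± 0.07 and -0.10 ± 0.08, with adjusted p of 0.918, 0.979 and 0.516.

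Other genes of the interferon pathway outside the 47 had 43 positive and 18 negative values among 61 tested, with a median of 0.09. By sex, 51 of the 61 were positive in males and 27 in females, where 51.6% and 53.4% of all probe sets were. Among 34 tested interferon-induced genes outside the 47, 31 were positive in males (median 0.22) and 17 in females (median -0.004). Over both sexes 27 of the 34 were positive, where 52.4% of all probe sets were. Of the 34, 1 passed, where 1.08% of all probe sets passed as higher. That was Trim34a, a TRIM protein, which rose by 0.35 ± 0.08 (adjusted p 0.0435, 10 of 10 pairs), with signals of 743 to 912 in Hyp males, against 525 to 835 in normal males, and 717 to 970.2 in Hyp females, against 545 to 768 in normal females. Iigp1, a GTPase, and Ly6e, a membrane-anchored protein, were higher in Hyp in 10 of 10 pairs, with 0.45 ± 0.12 and 0.30 ± 0.08 (adjusted p 0.0565 and 0.0605). Ifi47 and Gbp7, further GTPases, had 0.38 ± 0.11 and 0.24 ± 0.07 (adjusted p 0.08 and 0.0869).

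Receptors, kinases and regulators had 8 positive and 7 negative values among 15 tested. Their median was 0.00 and 0 passed, where 2.38% of all probe sets did. Ifnar2, a chain of the type I receptor, had -0.18 ± 0.07 and Ifnar1, its partner, 0.10 ± 0.08. Stat3 had 0.21 ± 0.08 and Ptpn11, a phosphatase, 0.14 ± 0.06. Genes that lead to interferon production had 7 positive and 4 negative values among 11 tested, and 0 passed (2.38% of all). Mb21d1, the DNA sensor cGAS, was the nearest, at 0.19 ± 0.10 (adjusted p 0.292). Irf8, Tmem173, which encodes the adaptor STING, and Unc93b1, a chaperone of endosomal Toll-like receptors, had 0.16, 0.12 and 0.14. Of the interferons, Ifnb1 was called present on 7 arrays, with 0.13 ± 0.24 and an adjusted p of 0.82. Ifng, Ifna1, Ifna2 and Ifna4 were called present on 0 arrays.

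Within males, 39 of 40 genes had positive values with a median of 0.24, and within females 34 of 40 with a median of 0.15. By probe set, 54 of 60 were positive in males (90.0%, against 51.6% of all) and 44 of 60 in females (73.3%, against 53.4% of all). In each sex 0 members passed in limma at an adjusted p of 0.05, where 0.0995% of all probe sets passed in males and 0.00368% in females. With the B lymphocyte list as a covariate, tried after the data were seen, 5 member probe sets passed in males, where 3.64% of all probe sets passed. At an unadjusted p under 0.05, 18 of 60 were higher in Hyp males (30.0%, against 10.3% of all) and 6 of 60 in Hyp females (against 4.82% of all). The interaction of genotype and sex, which tests whether these differ, passed for 0 members (0.00368% of all), and 4 of 60 (6.67%, against 6.62% of all) were under an unadjusted p of 0.05. The difference between the sexes in the Hyp effect was not detectable for any single member with this number of arrays.

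Females against males over both genotypes gave 45 of 60 member probe sets with a negative value (75.0%, against 49.9% of all), and 0 passed in limma (0.133% of all passed). At an unadjusted p under 0.05, 9 of 60 were lower in females (against 7.93% of all). The median over the 40 genes was -0.07. Marker lists of marrow cells that are described further on had lower values too, with medians of -0.71 for 9 of 9 erythroid, -0.53 for 7 of 7 megakaryocyte and -0.49 for 9 of 9 neutrophil markers, each negative and 0 passing. Their part in the difference between the sexes was not tested. Rsad2 had the lowest value by brightest probe set, -0.46 ± 0.12 for females over males (adjusted p 0.136), and its mean signals were 7032 ± 1580.2 in Hyp females, against 10601 ± 1166 in Hyp males, and 6059 ± 1015 in normal females, against 7657 ± 2037 in normal males (SD, n = 5 each). Its neighbour Cmpk2 had -0.40 ± 0.18, Herc6 -0.35 ± 0.17 and Oasl2 -0.29 ± 0.12, with adjusted p of 0.339, 0.357 and 0.291. Between the 5 series, 7.43% of all probe sets differed, and 1 member probe set did, the third of Samhd1 (adjusted p 0.0275). Irf7 varied with series at an adjusted p of 0.0796.

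The question was then whether the shift of these genes follows the cells left in the shaft, measured by marker lists that share no gene with the 47. Over the 10 pairs, the mean log2 shift of Hyp minus normal was 0.39 ± 0.27 for the endothelial list (SD over pairs), higher in Hyp in 9 pairs, 0.62 ± 0.75 for the megakaryocyte list, higher in 8, and 0.50 ± 0.81 for the erythroid list, higher in 6. It was 0.12 ± 0.27 for monocytes and macrophages, higher in 6, and 0.11 ± 0.62 for neutrophils, higher in 5. It was -0.20 ± 0.45 for B lymphocytes, higher in 2, and -0.18 ± 0.18 for plasmacytoid dendritic cells, higher in 3. The eosinophil list, with 2 of 6 markers tested, had the highest shift, 0.89 ± 0.80, higher in 9, and Prg2, an eosinophil granule protein, passed at 1.41 (adjusted p 0.00387). The T and NK lymphocyte list, with 3 of 12 markers tested, was at 0.04 ± 0.36, higher in 6. The bone list was at -0.41 ± 0.32, lower in Hyp in 10 pairs. Its 9 tested genes ran from -1.31 to 0.15, with 2 positive and 7 negative. Of these 3 passed as lower, where 354 of all 27141 probe sets did. Their summed signal overlapped between genotypes, at 134527 to 188103 in Hyp males, against 137191 to 204869 in normal males. In females it was 152394 to 180497 in Hyp mice, against 134652 to 186526 in normal mice. The eosinophil, T and NK lymphocyte and bone lists entered neither the relations nor the covariate fits that follow, so their part in the shift was not tested. All 12 endothelial, 7 megakaryocyte and 9 erythroid markers tested had positive values, of which 4, 1 and 0 passed. Of all probe sets 1.08% passed as higher. Other lists were mixed. The 12 monocyte and macrophage markers had 9 positive and 3 negative values, from -0.20 to 0.51. The 9 neutrophil markers had 4 positive and 5 negative values, and the 8 B lymphocyte markers 1 and 7.

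The summed signal of the 12 endothelial markers was 18723 to 26484 in Hyp males, against 12936 to 18266 in normal males, and 17946 to 23395 in Hyp females, against 13591 to 19499 in normal females. That of the 7 megakaryocyte markers was 12838 to 31659 in Hyp males, against 6100.4 to 17526 in normal males, and 8302 to 21199 in Hyp females, against 7290.3 to 13411 in normal females. The endothelial ranges did not overlap between genotypes in males, and the megakaryocyte ranges overlapped in both sexes. That of 9 erythroid markers was 39956 to 77347 in Hyp males, against 16828 to 47021 in normal males, and 21397 to 30914 in Hyp females, against 16660.0 to 31868 in normal females. That of the 2 eosinophil markers was 335 to 929 in Hyp males, against 133 to 322 in normal males, and 197 to 397 in Hyp females, against 55.9 to 196 in normal females, with no overlap in either sex. That of 12 monocyte and macrophage markers was 25822 to 28098 in Hyp males, against 20874 to 30422 in normal males, and 17117 to 28367 in Hyp females, against 21236 to 28174 in normal females, without Ly6c2, which was not analysed here. Siglech, a defining marker of plasmacytoid dendritic cells, was called present on 0 arrays. The 7 tested markers of that list had 1 positive and 6 negative values, from -0.59 to 0.41. Ccr9 and Ly6d among them were called present on 9 and 7 arrays, so the list may not measure these cells. The part of these lists in the shift of single genes was not tested beyond the relations and covariate fits that follow. The β-actin 3′ to 5′ signal ratio, a measure of RNA quality, was higher in Hyp in 9 of 10 pairs, by 0.14 ± 0.09 on the log2 scale (SD).

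The pair shifts of Ifit2, Oasl2 and Irf7 were set against those of 7 lists, 21 relations in all, with permutation p-values (100000 permutations, 2-sided) adjusted over the 21. A single relation passed, in which the Ifit2 shift was larger where the monocyte and macrophage list shifted less, with Pearson r = -0.88 (permutation p = 0.00019, adjusted 0.00399) and Spearman rho = -0.93 (permutation p = 0.00047, adjusted 0.00987, n = 10 pairs). Without the 2 pairs farthest from the median of that list, both female, r was -0.84 (permutation p = 0.0102, adjusted 0.214), and over the 6 pairs of series 3 to 5 it was -0.84 (exact permutation p = 0.05, adjusted 0.95). Series 1 and 2 held 4 pairs, too few for a correlation. Pairs of one series share litters, and a pair's 2 shifts come from the same arrays. For Oasl2 and Irf7 the same list gave r of 0.30 and 0.23, and the smallest adjusted p of the remaining 20 Pearson relations was 0.544. By Spearman it was 0.107, for Ifit2 with the megakaryocyte list (rho = -0.78, permutation p = 0.0102). Ifit2 with the neutrophil list gave rho = -0.72 (permutation p = 0.0235, adjusted 0.164). Pearson r of Ifit2 was -0.50, -0.58 and -0.54 with the megakaryocyte, neutrophil and B lymphocyte lists. It was -0.20, -0.18 and 0.15 with the erythroid, plasmacytoid dendritic cell and endothelial lists.

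**Figure D4:**
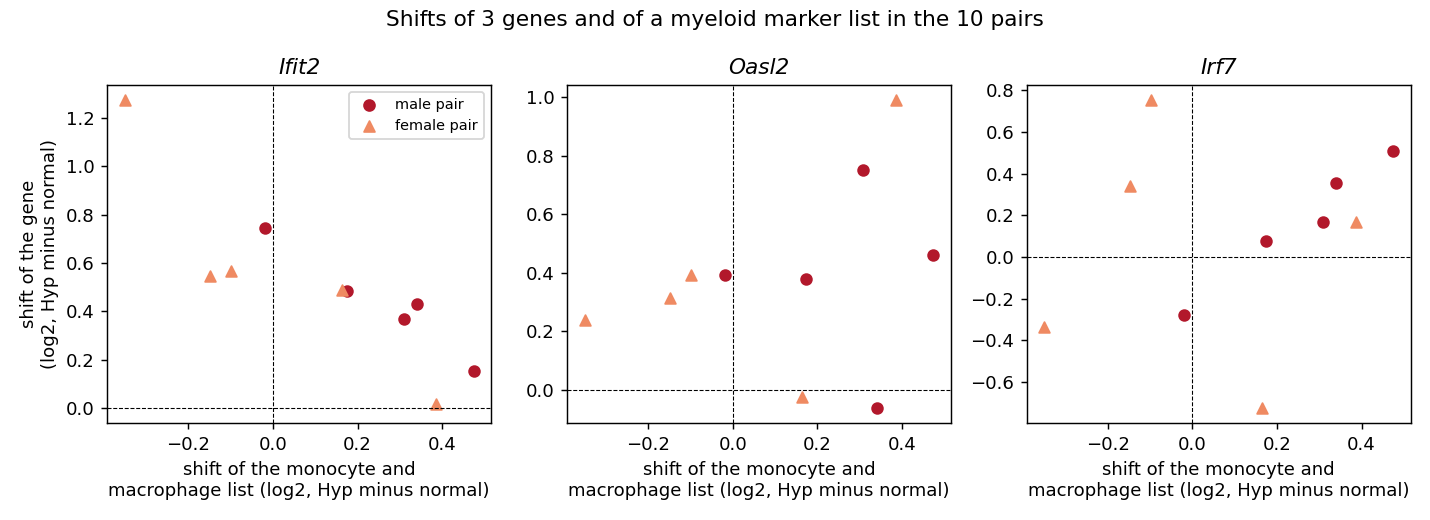
Log2 shift of Hyp minus normal in the 10 pairs for Ifit2, Oasl2 and Irf7 (vertical axes) against the mean shift of the monocyte and macrophage markers (horizontal axes), with male pairs as circles and female pairs as triangles. The Ifit2 points run from upper left to lower right (r = -0.88).

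When the mean signal of a list entered the fit as a covariate, the median of the 40 genes was 0.13 with the monocyte and macrophage list, 0.13 with the erythroid list and 0.11 with the megakaryocyte list, against 0.19 without one. It was 0.16 with neutrophils, 0.23 with B lymphocytes, 0.21 with the endothelial list and 0.24 with plasmacytoid dendritic cells. Between 31 and 37 of the 40 values were positive over these 7 fits. Of the 36 genes positive without a covariate, 29 were also positive with the endothelial list, 31 with the megakaryocyte list and 35 or 36 with each of the other 5. The Ifit2 log2 fold change ran from 0.39 with the endothelial list to 0.58 with plasmacytoid dendritic cells, and passed with the monocyte and macrophage, neutrophil and B lymphocyte lists (adjusted p 0.0212, 0.037 and 0.0371). It missed the threshold with the other 4, with adjusted p from 0.0695 to 0.326. There Ifit2 had 0.58 ± 0.12 with plasmacytoid dendritic cells, 0.57 ± 0.15 with megakaryocytes, 0.53 ± 0.14 with the erythroid list and 0.39 ± 0.19 with the endothelial list. Without a covariate it had 0.51 ± 0.11. With the B lymphocyte list, 7 member probe sets passed, of Ifit2, Oasl1, Ifih1, Tap1, Trim30a and, by 2 probe sets, Samhd1, where 4.7% of all probe sets passed. With the actin ratio as a covariate the median was 0.23, and 0 members passed, where 0.00368% of all probe sets passed. Ifit2 had 0.62 in that fit, with an SE of 0.19 and an adjusted p of 0.248, against 0.51 with an SE of 0.11 without the covariate. Series 1 and 2 alone gave a median of 0.21 with 32 of 40 positive, and series 3 to 5 alone gave 0.17 with 37 of 40.

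**Figure D5:**
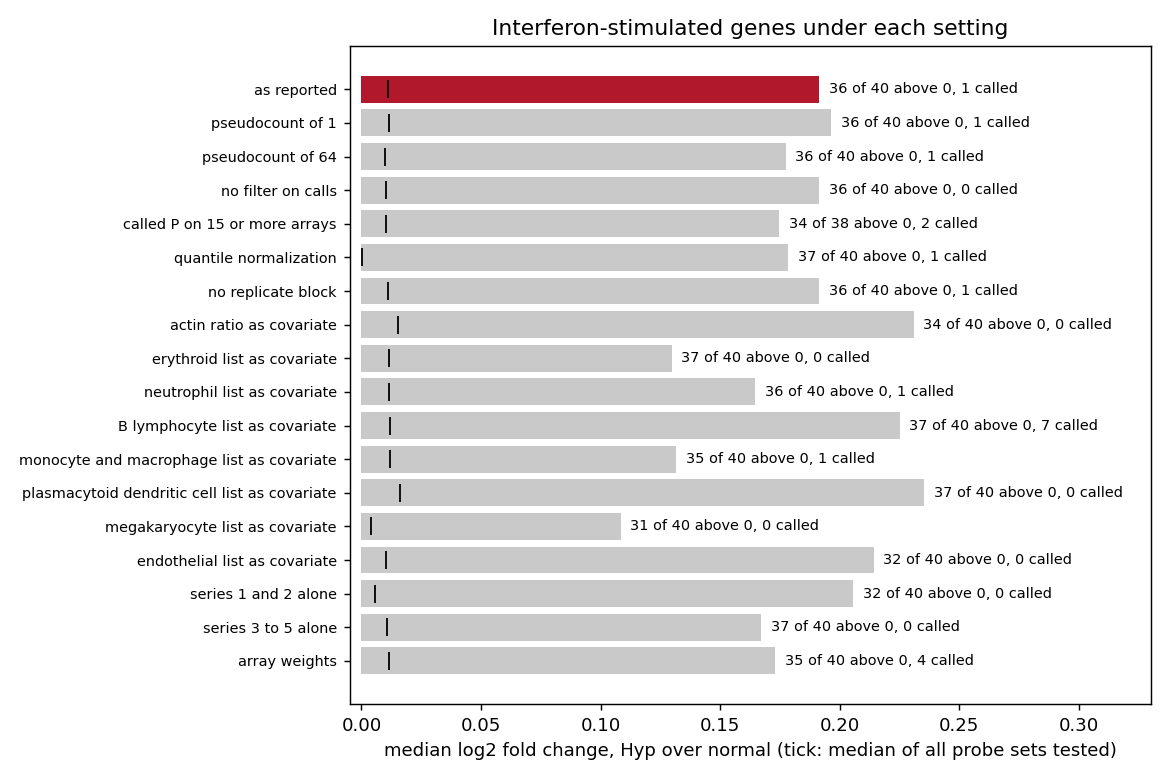
Median log2 fold change of Hyp over normal for the interferon-stimulated genes as reported and under 17 other settings (bars), with the median of all probe sets tested as a tick and the counts of genes above 0 and of member probe sets called beside each bar. The medians lie between 0.11 and 0.24, and all ticks lie between 0.00 and 0.02.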

How the data were processed

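Total RNA of the femoral shaft was measured on 20 Affymetrix arrays, 5 in each of 4 groups. The authors deposited 1 signal intensity per probe set and array, on a linear fluorescence scale, made with GCOS, named in the submitters' processing notes without settings. Its mean, trimmed by 2% at each end, was 500.0 on every array. The authors also deposited a ratio of Hyp to normal means and a score (the F statistic of genotype), both left out of the results here. Of 45101 probe sets, 34958 carry 1 gene symbol, 932 several and 9211 none in the annotation given for the array, and names were checked against RefSeq (GRCm38.p6).

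Signals were used as log2(signal + 16), so folds of dim probe sets are understated. The 64 control probe sets and those called present on fewer than 5 arrays were left out. One limma model (3.58.1, R 4.3.3, lmFit and eBayes, 12 residual degrees of freedom) had a term for each of the 4 groups, with series as a 5-level block. Its 2-sided p-values had the Benjamini-Hochberg adjustment across all 27141 tested probe sets, and 0.05 was the threshold. The fit and the relations were run on simulated data with independent normal noise, without series effects or correlation between probe sets. Those runs checked the calculations and not how far these data meet the model.

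Per the labels, arrays of a series share litters and processing. Deviations of same-series arrays from their group means correlated across probe sets at a median of 0.215 (range -0.0288 to 0.418, 30 pairs), against -0.0698 for arrays of different series.

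A gene was read by its brightest tested probe set, by mean log2 signal. Ifit2, Oasl2, Irf7, each member called and the next by p up to 12 genes are given on every array, then up to 4 further members a role group by p, members whose probe sets differ in sign and members not tested. The members, roles, marker lists and tests were chosen with earlier results of these data known. The counts by sign, by unadjusted p and by pairs were chosen after the members' values had been seen. Marker lists enter as the mean log2 signal of their tested genes. Alternatives were the pseudocount (1, 64), the filter, quantile normalization, no block, covariates, array weights, parts of the series and leaving out each series or array.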

Additional observations from a re-analysis of the deposited data

Results flagged for a closer look

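Signals of the 12 genes given on every array were searched for an array far from the other 4 of its group, by the gap to its nearest neighbour over the range of the group (Dixon's 95% limit for 5 values). In 48 groups 5 such arrays were found, and chance alone gives about 1 in 20 groups. Oasl1 was 194.6 in the Hyp male of series 3, below the other 4 Hyp males in a group that lay close together. Gbp2 was 849.4 in the Hyp male of series 2 and 718.9 in the Hyp female of series 3, each above the rest of its group. Rtp4 was 1173.7 in the Hyp male of series 5, above the other Hyp males, and 767.6 in the normal female of series 5, below the other normal females.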

How the results depend on the processing

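The limits are the 5 arrays a group, pooled mice, signals without a known background model and probe sets that share an array. Under 42 other settings the median log2 fold change of the member genes stayed between 0.11 and 0.24, and 31 to 37 of 40 genes were above 0 (34 of 38 with present calls on 15 or more arrays). Of the 36 above 0 as reported, 29 to 36 were above 0 in each of the 41 settings that tested all 40 genes. The number of member probe sets called in Hyp against normal, 1 as reported, was 7 with the B lymphocyte list as covariate, 4 with array weights, 2 with present calls on 15 or more arrays, and 0 with no filter on calls, the actin ratio, the erythroid, plasmacytoid dendritic cell, megakaryocyte or endothelial list as covariate, series 1 and 2 alone or series 3 to 5 alone. Leaving out each replicate series or array in turn gave 0 to 4. Ifit2 was called in 24 of the 42 settings. The series number pairs litters, and without the replicate block Ifit2 had 0.51 (adjusted p 0.0314), 1 member was called, and 317 probe sets in all against 647.

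All calls in that contrast, 647 as reported, were 148 with no filter, 1077 with 15 or more present calls, 1431 with array weights, 1276, 305, 33, 8 and 4 with the B lymphocyte, endothelial, plasmacytoid dendritic cell, megakaryocyte and erythroid lists, 1 with the actin ratio, 0 in series 1 and 2 alone, 1 in series 3 to 5 alone, and 20 to 1343 when 1 series or 1 array was dropped. Fewer arrays or an added term leave fewer degrees of freedom. Each list or ratio added 1 term alike, yet calls ran from 1 with the actin ratio to 1276 with the B lymphocyte list. The SE of Ifit2 was 1.76 times that reported with the actin ratio and 1.04 times with the neutrophil list, which gave 583 calls. The cause of the differences between settings was not tested. Covariates for cell content, parts of the series and array weights were added for the other contrasts after the data were seen. Member calls in males alone were 0 under every alternative but the B lymphocyte list, which gave 5, and calls in females alone, in the interaction and between the sexes were 0 under every alternative. Between series, 1 member probe set as reported was 2 with a pseudocount of 64 or 15 or more present calls, 2 with the neutrophil or megakaryocyte list, 3 with array weights, 0 with no filter, quantile normalization, the erythroid, B lymphocyte, monocyte and macrophage or endothelial list or either part of the series alone, and 0 to 2 when 1 series or 1 array was dropped. The single relation that passed gave 0 without the 2 farthest pairs and 0 in series 3 to 5 alone, where 6 pairs remain, and was not run for series 1 and 2, which hold 4 pairs.

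Of 1678 values of single genes under other settings, 49 changed sign, in 17 genes that were not called, and 1599 kept sign and call. The cause was not tested. As log2 fold changes these were, with the endothelial list, Irf7 -0.053, Rtp4 -0.12, Stat2 0.062, Ddx58 -0.026, Eif2ak2 0.22, Ifit1 -0.053, Ifi27 0.0031, Xaf1 -0.054, Lgals3bp -0.058 and Gbp3 -0.15. With the actin ratio they were Irf7 -0.0099, Stat2 0.10, Ddx58 -0.025, Ifit1 -0.033, Ifi27 0.011 and Xaf1 -0.0014, and with the megakaryocyte list Irf9 -0.037, Trim30a -0.018, Parp9 -0.012, Samhd1 -0.0044 and Igtp -0.083. In series 1 and 2 alone they were Irf1 -0.0055, Ddx58 -0.027, Eif2ak2 0.10, Ifit3 -0.0042, Xaf1 -0.14 and Gbp3 -0.013. Ifi27, at -0.005 as reported, was at 0.027 with the erythroid list, 0.017 with the B lymphocyte list, 0.043 with the plasmacytoid dendritic cell list, 0.0089 in series 3 to 5 and 0.010 after quantile normalization. Lgals3bp was at -0.040 with the monocyte and macrophage list and -0.036 with array weights. When 1 series or 1 array was dropped, Ifi27 ran from -0.029 to 0.020, Lgals3bp from -0.057 to 0.098, Irf7 from -0.029 to 0.25 and Igtp from -0.0081 to 0.10. The Ifit2 call was lost in 18 settings and 5 other genes gained one in 12, among them Oasl1 with adjusted p of 0.0235 with the B lymphocyte list and 0.0386 with array weights.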
